A study of Mus musculus with 20 samples.

Results

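Condensin II was mapped by chromatin immunoprecipitation and sequencing (ChIP-seq) with antibodies to 2 of its subunits, CAP-D3 and CAP-H2, in mouse embryonic fibroblasts (MEFs), primary cells grown out of E13.5 embryos. RbL cells are Rb1L/L, homozygous for the L allele of the retinoblastoma gene Rb1 (written dL in the sample names), and WT cells are wild type; both are C57BL/6, proliferating at passage 4 and asynchronously cycling. The condensin II peak lists of RbL CAP-D3, RbL CAP-H2, WT CAP-D3 and WT CAP-H2 make up 4 of the 12 peak lists and 4 of the 20 samples of the series, and 114918 of its 1285131 peaks on chromosomes 1 to 19. They were taken as 2 libraries of 1 complex per genotype, and the genotypes were compared by the joint occupancy of the subunits and then subunit by subunit. The remaining samples are 2 TFIIIC and 2 H3K27me3 libraries per genotype and 8 inputs. The series title gives the question as whether pRb, the retinoblastoma protein, brings condensin II to gene promoters.

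Condensin complexes are rings of a pair of SMC ATPases closed by non-SMC subunits, and they fold chromatin by extruding loops. Condensin II carries CAP-H2, the kleisin that bridges the SMC heads, and the HEAT-repeat subunits CAP-D3 and CAP-G2; unlike condensin I it is nuclear throughout the cell cycle. The pocket protein pRb restrains E2F transcription factors and also holds partners that carry an LXCXE motif in a cleft of its own, and the L allele changes that cleft. CAP-D3 is a known partner of pRb in fly and mammalian cells.

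Cells for both condensin II antibodies, an in-house rabbit antibody to CAP-D3 and a commercial one to CAP-H2, were fixed with 2 mM EGS, a long-arm protein crosslinker, and then 1% formaldehyde. Each genotype had 1 library per subunit, so no p-value is given between genotypes, and every difference below is a difference between single libraries without a replicate check. Exact (Clopper-Pearson) 95% binomial intervals follow the shares and cover counting error only. Per the labels, the condensin II libraries of a genotype share an input, so the subunits are not independent readings. That input is numbered 1 in RbL and 2 in WT, so genotype and input number cannot be told apart. The labels do not say what the numbers stand for. The number of reads behind a list is unknown, and a peak absent from a list is a missing call, not a measured absence of protein. Peak lists carry no cell markers, so the labelled cell type could not be checked. Positions are on mm9 and 1-based; genes and promoters were not assigned.

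The CAP-D3 list was shorter in RbL than in WT, while the CAP-H2 lists were of nearly equal length. On chromosomes 1 to 19 the CAP-D3 lists held 12926 peaks in RbL and 17192 in WT (log2 ratio −0.41), and the CAP-H2 lists 42626 peaks in RbL and 42174 in WT (log2 ratio 0.02). The shorter RbL CAP-D3 list held wider and higher-scoring peaks. The median CAP-D3 width was 813 bp in RbL and 643 bp in WT, so the DNA covered differed less than the peak number, 11.9 Mb in RbL and 13.3 Mb in WT. The median CAP-D3 score, the authors' score for a peak, was 740 in RbL and 358 in WT. CAP-H2 peaks had median widths of 873 bp in RbL and 906 bp in WT, and covered 44.3 Mb in RbL and 45.0 Mb in WT. Many peaks sit at or just above a score of 3100, where ties pile up: 19.2% of CAP-D3 peaks in RbL and 12.6% in WT, and 2.02% of CAP-H2 peaks in RbL and 1.47% in WT. Scores depend on depth and on the input, so they rank peaks only within a list.

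A larger share of the CAP-D3 peaks carried CAP-H2 in RbL than in WT, while the number of places with both subunits was close in the genotypes. CAP-H2 of the same genotype overlapped 66.5% of CAP-D3 peaks in RbL (interval 65.6 to 67.3, 8592 peaks) and 56.1% in WT (55.3 to 56.8, 9639 peaks). Seen from the other subunit, CAP-D3 overlapped 19.8% of CAP-H2 peaks in RbL (19.5 to 20.2) and 21.8% in WT (21.4 to 22.2). Overlapping CAP-D3 and CAP-H2 peaks merged into 8218 joint sites in RbL and 9037 in WT (log2 ratio −0.14), which held 6.87 Mb under both peaks in RbL and 7.07 Mb in WT. The order for the CAP-H2 share and for the number of joint sites turned when the lists of both subunits were cut to equal length. With the same number of highest-scoring peaks kept per subunit (12926 for CAP-D3 and 42174 for CAP-H2), there were 8174 joint sites in RbL and 7416 in WT (log2 ratio 0.14), and CAP-D3 overlapped 20.0% of CAP-H2 peaks in RbL and 18.0% in WT. The CAP-D3 peaks with CAP-H2 were then 66.1% in RbL and 60.2% in WT, the same direction as in the full lists.

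Joint peaks were the wider and higher-scoring ones of each list. CAP-D3 peaks with CAP-H2 had a median score of 896 in RbL and 550 in WT, and those without it 532 in RbL and 270 in WT. CAP-H2 peaks with CAP-D3 had a median score of 391 in RbL and 279 in WT, and those without it 169 in RbL and 121 in WT. Median widths followed: 892 bp for joint and 674 bp for single CAP-D3 peaks in RbL, and 774 and 534 bp in WT. With each list divided into 4 classes of equal size by score, the share of CAP-D3 peaks that were joint was 57.5%, 59.6%, 71.1% and 77.6% from the lowest to the highest class in RbL, and 43.6%, 41.6%, 63.8% and 75.3% in WT. The genotypes lay closest in the highest class, with intervals of 76.1 to 79.0 in RbL and 73.9 to 76.6 in WT. For CAP-H2 the joint share was 9.86%, 11.5%, 19.9% and 38.2% in RbL, and 10.5%, 12.6%, 22.1% and 42.2% in WT.

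The geometry of CAP-D3 and CAP-H2 peaks was measured only for pairs that overlap, which itself limits the distance between midpoints. No comparison distance was computed. The midpoints of overlapping CAP-D3 and CAP-H2 peaks lay a median of 189.5 bp apart in RbL (8835 pairs) and 188 bp in WT (9806 pairs). The CAP-D3 peak lay wholly inside the CAP-H2 peak in 41.1% of RbL pairs (40.1 to 42.1) and 50.9% of WT pairs (49.9 to 51.9). The reverse, CAP-H2 inside CAP-D3, held for 13.7% of RbL pairs and 8.96% of WT pairs. The wider CAP-D3 calls of the RbL list go with both of these differences; their part was not tested.

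To follow each place between genotypes, the peaks of the 4 lists were merged where they shared at least 1 base, which gave 60899 regions. Each region then had 1 of 4 states per genotype: both subunits, CAP-D3 alone, CAP-H2 alone or neither. Both subunits were called at 8219 regions in RbL and 9026 in WT, CAP-D3 alone at 4214 in RbL and 7379 in WT, and CAP-H2 alone at 32665 in RbL and 31711 in WT. CAP-H2 alone was thus the commonest state in either genotype, 53.6% of regions in RbL and 52.1% in WT. The state that differed most in relative size was CAP-D3 alone.

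**Figure D1:**
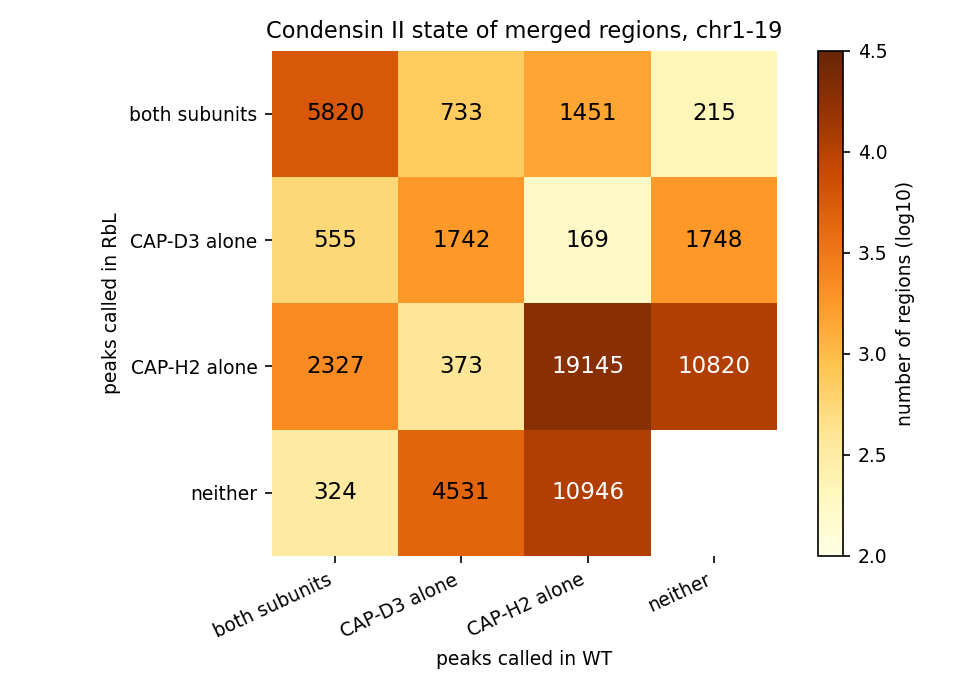
Number of merged regions (cell labels; colour on a log10 scale) by the state in RbL cells (rows) and in WT cells (columns), from 1 library per subunit and genotype. Joint occupancy in both genotypes (5820) stands beside 1451 regions joint in RbL with CAP-H2 alone in WT and 2327 with CAP-H2 alone in RbL that were joint in WT, an order that turns at equal list lengths.

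Of the regions joint in either genotype, 5820 were joint in both. They made up 70.8% of the RbL joint regions (69.8 to 71.8) and 64.5% of the WT joint regions (63.5 to 65.5); at equal list lengths the order turned, with 65.4% of RbL and 72.1% of WT joint regions shared. At most regions joint in 1 genotype only, the other genotype had a call of 1 subunit. Of the 2399 regions joint in RbL but not in WT, the WT lists had CAP-H2 alone at 60.5% (58.5 to 62.4), CAP-D3 alone at 30.6% (28.7 to 32.4) and neither at 8.96% (7.85 to 10.2). Of the 3206 regions joint in WT but not in RbL, the RbL lists had CAP-H2 alone at 72.6% (71.0 to 74.1), CAP-D3 alone at 17.3% and neither at 10.1% (9.08 to 11.2). In either direction the call most often missing was that of CAP-D3 in the full lists; with only peaks of a score of at least 100, CAP-H2 alone made up 47.3% of the WT states at RbL-only joint regions.

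The background for these counts is the whole of each subunit's calls. Of all 19988 regions with CAP-D3, 17.9% were called in RbL only, 37.8% in WT only and 44.3% in both. Of all 52878 regions with CAP-H2, 23.0% were called in RbL only, 22.7% in WT only and 54.4% in both. Where CAP-H2 was called in both genotypes, 15.1% of 9598 CAP-D3 regions were in RbL only and 24.2% in WT only. Where CAP-H2 was in neither, 21.8% of 8021 CAP-D3 regions were in RbL only and 56.5% in WT only. Regions specific to 1 genotype were thus a smaller part of the CAP-D3 calls where CAP-H2 stood in both, and that held for RbL-only and WT-only calls. A CAP-H2 peak can join CAP-D3 peaks of the genotypes that do not overlap each other into 1 region, and that part was not tested. For CAP-H2, with CAP-D3 in both genotypes, 10.3% of 7108 regions were in RbL only and 7.81% in WT only, and with CAP-D3 in neither, 26.4% of 40911 were in RbL only and 26.8% in WT only.

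The CAP-D3 calls missing from 1 genotype were mostly low in rank, whereas CAP-H2 at the same regions was high. At the 1451 regions joint in RbL with CAP-H2 alone in WT, the RbL CAP-D3 peak stood at a median percentile of 22.7 of its list, and CAP-H2 at 77.5 in RbL and 76.7 in WT. At the 2327 regions with CAP-H2 alone in RbL that were joint in WT, the WT CAP-D3 peak stood at a median percentile of 29.1, and CAP-H2 at 73.8 in RbL and 74.2 in WT. The mirror case was alike: at the 733 regions joint in RbL with CAP-D3 alone in WT, CAP-H2 in RbL stood at 32.4 and CAP-D3 at 65.9 in RbL and 72.4 in WT. Among the 5820 shared joint regions the medians were 66.7 in RbL and 75.1 in WT for CAP-D3, and 79.0 in RbL and 79.4 in WT for CAP-H2. CAP-D3 called in 1 genotype only ranked as low with CAP-H2 in neither, at medians of 22.5 in RbL and 27.9 in WT. Low CAP-D3 rank was thus not particular to regions with CAP-H2. Calls found in both genotypes rank higher in general, so part of the contrast between the subunits follows from how the regions were chosen.

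CAP-D3 calls were more frequent at higher CAP-H2 rank among the regions that held CAP-H2 in both genotypes. These 28743 regions carried CAP-D3 at 25.3% in RbL (24.8 to 25.8) and 28.3% in WT (27.8 to 28.9). With the regions divided into 10 classes by their mean CAP-H2 percentile, the lowest class had CAP-D3 at 11.7% in RbL and 13.9% in WT, and the highest at 55.4% in RbL and 60.8% in WT. The RbL share was the lower one in all 10 classes of the full lists, by 1.98 to 5.39 percentage points. That order depends on list length: at equal lengths CAP-D3 was called at 25.3% of such regions in RbL and 23.3% in WT.

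**Figure D2:**
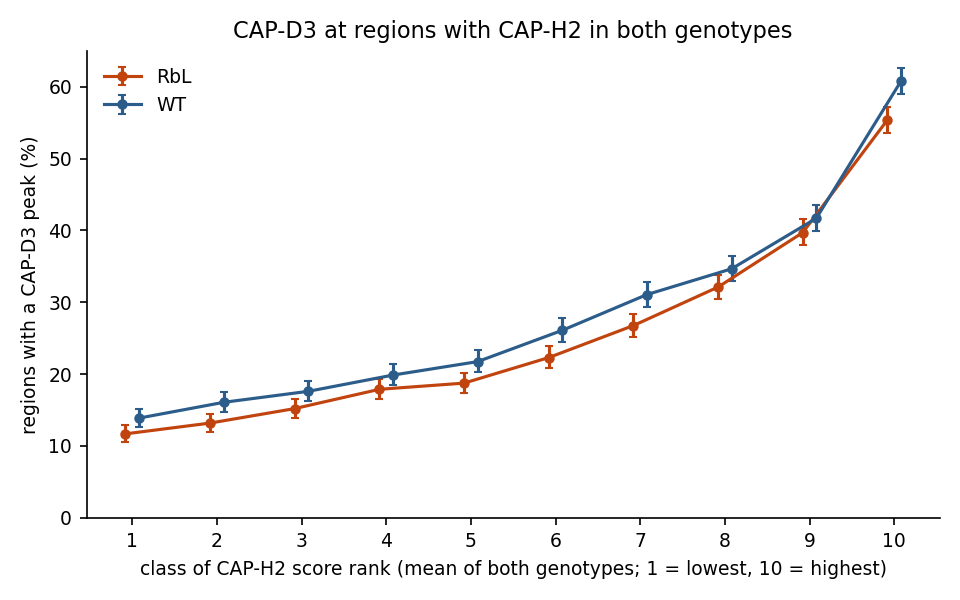
Percent of regions with a CAP-D3 peak (points, with exact 95% intervals for counting error) across 10 classes of CAP-H2 rank, for the 28743 regions with CAP-H2 in both genotypes. The share runs between 11.7% and 55.4% in RbL and between 13.9% and 60.8% in WT in the full lists, and at equal list lengths the overall order of the genotypes turns.

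CAP-H2 at stable CAP-D3 did not vary as much. Of the 8850 regions with CAP-D3 in both genotypes, 74.0% carried CAP-H2 in RbL and 72.0% in WT. Across 10 classes of CAP-D3 rank the share lay between 68.2% and 79.1% in RbL and between 65.1% and 78.5% in WT. A CAP-D3 region found in both genotypes thus had CAP-H2 at a similar rate whatever its CAP-D3 rank, while the share of CAP-H2 regions with CAP-D3 differed several-fold between the lowest and the highest CAP-H2 class.

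Subunit by subunit, a call was found again in the other genotype more often where the other subunit was present. CAP-D3 regions of RbL were called again in WT at 80.0% with CAP-H2 in both genotypes and 49.9% with CAP-H2 in neither. CAP-D3 regions of WT were called again in RbL at 71.4% with CAP-H2 in both and 27.8% with CAP-H2 in neither. At equal list lengths the 4 shares were 73.8% and 45.9% for RbL calls, and 80.2% and 38.8% for WT calls, so the gap between regions with and without CAP-H2 was there in each direction.

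The gap closed with rank. From the lowest to the highest score class of the RbL CAP-D3 list, 47.2%, 66.2%, 95% and 100% were called again in WT with CAP-H2 in both genotypes, and 17.5%, 38.7%, 90.2% and 99.8% with CAP-H2 in neither. For the WT list the shares called again in RbL were 31.0%, 42.2%, 81.0% and 99.8% with CAP-H2 in both, and 6.64%, 9.57%, 62.2% and 99.7% with CAP-H2 in neither. In the highest class a CAP-D3 peak of either genotype was nearly always in the other list, with or without CAP-H2.

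CAP-H2 calls showed the same arrangement. RbL CAP-H2 regions were called again in WT at 88.8% (88.0 to 89.6) with CAP-D3 in both genotypes and 63.9% with CAP-D3 in neither. WT CAP-H2 regions were called again in RbL at 91.3% (90.6 to 92.0) with CAP-D3 in both and 63.6% with CAP-D3 in neither. The 2 shares with CAP-D3 count the same 5820 regions, out of 6553 in RbL and 6375 in WT. Their difference thus only restates those totals, and the CAP-H2 shares were not repeated at equal list lengths. In the lowest score class the shares without CAP-D3 were 38.8% for RbL regions and 37.8% for WT regions, and in the highest 98.4% and 98.3%.

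**Figure D3:**
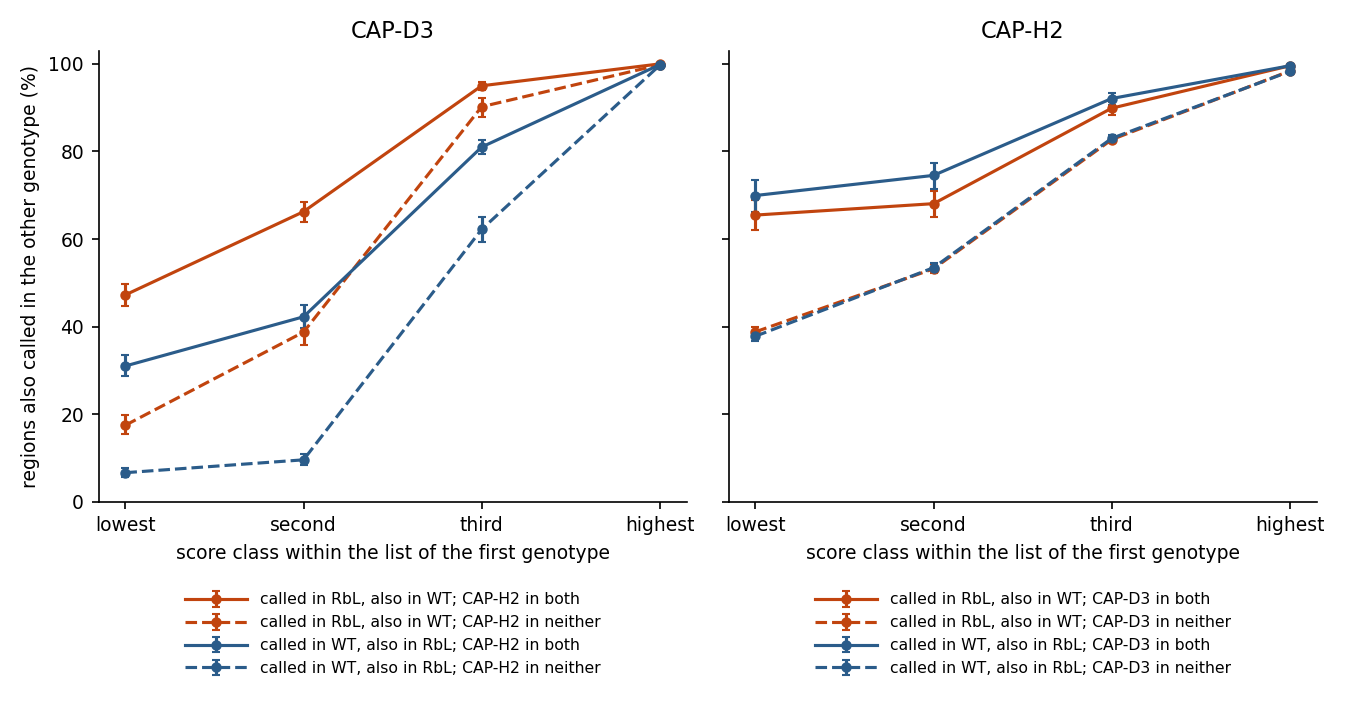
Percent of regions of 1 genotype that were called again in the other (points, with exact 95% intervals for counting error), by score class and by the other subunit (solid, present in both genotypes; dashed, in neither). CAP-D3 calls of the lowest class were found again at 47.2% (RbL regions) and 31.0% (WT regions) with CAP-H2, and at 17.5% and 6.64% without it, and nearly all calls of the highest class were found again.

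For scale, the antibodies with 2 libraries per genotype were measured in the same way. A peak of 1 library was overlapped in the other genotype for 70.5% of RbL and 53.6% of WT CAP-D3 peaks, and for 71.2% of RbL and 71.3% of WT CAP-H2 peaks. Between libraries of the same genotype the overlap was 30.4% to 60.5% for H3K27me3 and 46.2% to 70.3% for TFIIIC. The overlap of condensin II lists between genotypes was therefore no lower than that of some pairs of libraries of 1 genotype for another antibody, though lists of other lengths and another fixation are not a measure of condensin II replicate error.

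At the 5820 shared joint regions the order of sites was largely kept between genotypes. Spearman's rho of the percentile ranks between RbL and WT was 0.87 for CAP-D3 and 0.84 for CAP-H2; at 1443 of the regions (24.8%) CAP-D3 scored 3100 or more in both genotypes, and without these rho was 0.74 for CAP-D3. Within a genotype the ranks of CAP-D3 and CAP-H2 were nearly unrelated among these regions, with rho of −0.0018 in RbL and −0.010 in WT. The shift in rank between genotypes was nearly unrelated too, with rho of 0.07 between the subunits. These correlations are across regions of the same libraries, which are not independent replicates.

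The shared regions were compact, with a median width of 1634 bp for the merged region. CAP-D3 covered a median of 1037 bp there in RbL and 992 bp in WT, and was wider in RbL at 59.6% of regions. CAP-H2 covered 1266 bp in RbL and 1279 bp in WT, and was wider in RbL at 46.8%. More than 1 CAP-D3 peak fell in 6.86% of the regions in RbL and 9.86% in WT, and more than 1 CAP-H2 peak in 9.09% in RbL and 7.99% in WT.

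The leading shared region, by the lowest of its 4 percentile ranks, was chr19:5792426-5805403, which spans 12978 bp. It scored 3210 for CAP-D3 and 3100 for CAP-H2 in RbL, and 3189 for CAP-D3 and 3100 for CAP-H2 in WT. It also carried TFIIIC and H3K27me3 peaks in all 4 libraries of each. The next, chr17:23808238-23814983, scored 3214 and 3100 in RbL and 3100 and 3100 in WT, and had TFIIIC in all 4 libraries. The narrow region chr17:68337850-68339402 scored 3100 for CAP-D3 and 2856 for CAP-H2 in RbL, and 3164 and 1138 in WT, with no TFIIIC peak in any library. The region chr4:19501617-19503170 likewise had neither TFIIIC nor H3K27me3 in any library, with CAP-D3 at 3100 and CAP-H2 at 3100 in RbL, and 3100 and 3168 in WT. Of the 10 leading shared regions, 4 had TFIIIC in both RbL libraries and 8 in both WT libraries, and the ties at 3100 leave their order partly to width.

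Regions joint in 1 genotype with neither subunit in the other did not reach the top of the lists. The leading 8 of the 215 RbL regions of this kind had lowest percentiles of 48.3 to 64.6, and the leading 8 of the 324 WT regions 59.9 to 70.3. The first RbL region, chr9:123832245-123834622, scored 1307 for CAP-D3 and 1194 for CAP-H2 in RbL with no call in WT, and TFIIIC was called there in both RbL libraries and 1 WT library. The next, chr13:10635833-10636735, scored 1538 for CAP-D3 and 247 for CAP-H2 in RbL and had no TFIIIC or H3K27me3 peak. The first WT region, chr4:45031045-45032115, had no call in RbL, and scored 879 for CAP-D3 and 275 for CAP-H2 in WT. It was followed by chr17:34723943-34724922, with no call in RbL and scores of 730 and 210 in WT.

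Among the leading regions that were joint in 1 genotype and held 1 subunit in the other, the call most often missing was that of CAP-H2, which the way they were picked favoured. All 8 leading regions joint in RbL had CAP-D3 alone in WT. At chr4:101091378-101093348 CAP-D3 scored 3100 in RbL and 3100 in WT, while CAP-H2 scored 513 in RbL and was not called in WT. At chr19:40345106-40346701 CAP-D3 was again 3100 in RbL and 3100 in WT, with CAP-H2 at 491 in RbL and not called in WT. Of the 8 leading regions joint in WT, 6 had CAP-D3 alone in RbL and 2 had CAP-H2 alone. At chr1:192751888-192753597 CAP-D3 scored 3100 in RbL and 3100 in WT, and CAP-H2 was not called in RbL and scored 534 in WT. The region chr14:8710331-8713684 was one where CAP-D3 was missing, not called in RbL and 1801 in WT, with CAP-H2 at 934 in RbL and 907 in WT. These regions were picked by high ranks of both subunits where joint, and missing CAP-D3 calls were mostly of low rank. In the highest CAP-D3 score class, 3107 of 3108 RbL regions and 4094 of 4101 WT regions were called again in the other genotype. For CAP-H2 these were 10114 of 10221 and 10076 of 10184. The make-up of the leading regions thus follows largely from their selection and is no result about strong sites.

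Nearly all broad CAP-H2 peaks had a CAP-H2 peak in the other genotype, though not always a broad one. CAP-H2 peaks over 5 kb numbered 287 in RbL and 308 in WT, and held 5.25% of the DNA covered in RbL and 5.52% in WT. A CAP-H2 peak of the other genotype overlapped 98.6% of the RbL broad peaks (96.5 to 99.6) and 100% of the WT broad peaks (98.8 to 100). A peak over 5 kb of the other genotype overlapped 76.3% of the RbL broad peaks (71.0 to 81.1) and 72.7% of the WT broad peaks (67.4 to 77.6). CAP-D3 of the same genotype lay on 55.7% of them in RbL (49.8 to 61.6) and 63.0% in WT (57.3 to 68.4), against 19.8% of all CAP-H2 peaks in RbL and 21.8% in WT. The broad peaks also ranked high, with median scores of 3100 in RbL and 2840 in WT, and the parts of width and score in that share were not tested. The widest was chr10:119870294-119915427 in RbL, 45.1 kb, where the widest WT peak, 37.0 kb, lay at chr10:119878714-119915685. CAP-D3 was called there once in RbL, over 1177 bp, and the RbL block held 2 WT CAP-D3 peaks. The RbL block chr19:5818909-5847627 (28.7 kb) held no CAP-D3 peak in RbL and 2 in WT.

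The difference in joint sites was spread over the autosomes. The log2 ratio of joint regions in RbL over WT was below 0 on 19 of 19 chromosomes, between −0.25 on chromosome 16 and −0.02 on chromosome 5. CAP-D3 peaks gave ratios of −0.53 to −0.26, also below 0 on all 19, and CAP-H2 peaks −0.04 to 0.06, below 0 on 4. The CAP-D3 ratios carry the length of the whole CAP-D3 list, and with the lists of both subunits at equal lengths the genome-wide joint ratio is 0.14. Joint regions lay a median of 48.4 kb from the nearest other in RbL and 43.5 kb in WT, and 13.8% in RbL and 15.4% in WT had one within 10 kb.

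Counted in 1 Mb windows, the genotypes had nearly the same map of joint regions, with a few windows apart. Of 1938 windows with a joint region, 882 had fewer in RbL, 510 the same number and 546 more, and Pearson's r over windows was 0.90, a description of 1 pair of maps. The richest windows were rich in both: chr10:79000001-80000000 had 24 joint regions in RbL and 29 in WT, chr10:80000001-81000000 had 25 in RbL and 26 in WT, and chr4:88000001-89000000 had 25 in RbL and 23 in WT.

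The window farthest from the rest was chr8:126000001-127000000. It held 12 joint regions in RbL and 27 in WT, of which 4 were shared. CAP-D3 peaks numbered 28 in RbL and 58 in WT, and CAP-H2 peaks 37 in RbL and 52 in WT. Both subunits thus had fewer calls in RbL, and equal list lengths left the joint regions at 12 in RbL and 27 in WT, and CAP-D3 peaks at 28 in RbL and 56 in WT. Most of the difference in CAP-D3 lay in the first part, chr8:126000001-126200000, with 21 CAP-D3 peaks in RbL and 46 in WT, 14 CAP-H2 peaks in RbL and 21 in WT, and 8 joint regions in RbL and 18 in WT, of which 1 was shared. TFIIIC peaks in the whole window numbered 321 and 327 in the RbL libraries and 231 and 276 in the WT libraries, in lists of unequal length. The opposite case was chr11:115000001-116000000, with 21 joint regions in RbL and 11 in WT, all 11 shared, and the same numbers at equal list lengths. These windows were picked for their difference, so the numbers describe them and test nothing.

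Other windows stood out for a single subunit. In chr5:14000001-15000000 CAP-D3 had 3 peaks in RbL and 20 in WT, but at equal list lengths 3 in RbL and 2 in WT. In chr8:19000001-20000000 CAP-D3 had 20 peaks in RbL and 5 in WT, and at equal lengths 20 in RbL and 3 in WT, with few CAP-H2 peaks (4 in RbL, 2 in WT). In chr16:24000001-25000000 CAP-H2 had 155 peaks in RbL and 100 in WT, the most of any of these windows, with 6 CAP-D3 peaks in RbL and 12 in WT; at equal lengths CAP-H2 had 153 in RbL and 100 in WT, and CAP-D3 6 in RbL and 6 in WT. In chr8:105000001-106000000 CAP-H2 had 68 peaks in RbL and 45 in WT, with 2 CAP-D3 peaks in RbL and 2 in WT.

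**Figure D4:**
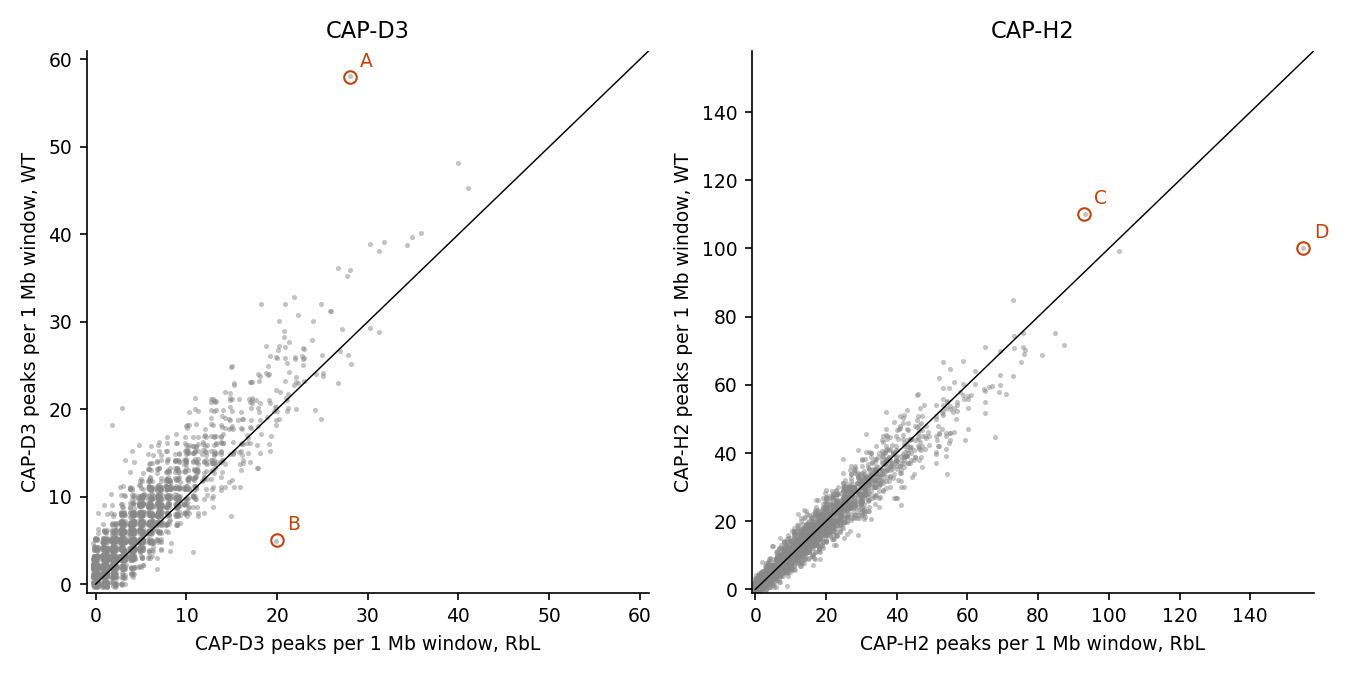
Peaks per 1 Mb window of chromosomes 1 to 19 in RbL (x axis) and WT (y axis) cells, CAP-D3 left and CAP-H2 right, with the line of equal numbers; points are shifted by under 1 peak to show overlaps. Circles mark, for each subunit, the window with the lowest and the one with the highest difference, RbL minus WT: chromosome 8 from 126 Mb (A; CAP-D3 28 in RbL, 58 in WT), chromosome 8 from 19 Mb (B; 20 and 5), chromosome 2 from 27 Mb (C; CAP-H2 93 in RbL, 110 in WT) and chromosome 16 from 24 Mb (D; 155 and 100).

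TFIIIC, the factor that binds the internal promoters of tRNA genes and also lies at sites without RNA polymerase III, was used to describe the condensin II regions from libraries outside the rule, 2 per genotype (fixed with 1% formaldehyde alone). At the 5820 shared joint regions TFIIIC was called at 35.4% and 34.3% in the RbL libraries and 53.7% and 49.3% in the WT libraries. The genotypes did not overlap, with means of 34.8% ± 0.75 in RbL and 51.5% ± 3.05 in WT (SD, n = 2 each), a difference of −16.7 percentage points. The difference was smaller where joint occupancy was in 1 genotype only: 21.7% and 21.6% in RbL and 29.3% and 27.4% in WT at RbL-only joint regions, and 23.1% and 23.6% in RbL and 31.3% and 30.3% in WT at WT-only ones. Those regions were also narrower, at medians of 1235 bp (RbL-only) and 1228 bp (WT-only) against 1634 bp at shared ones. The part of width in the smaller difference was not tested. Regions with CAP-H2 alone in both genotypes had TFIIIC at 21.7% and 21.8% in RbL and 19.7% and 21.0% in WT, so both RbL libraries were above both WT libraries there. Equal numbers of top-scoring TFIIIC peaks (195239 per library) gave 14.6% and 14.8% in RbL and 19.7% and 16.1% in WT at those regions, which turns their order, and 22.5% and 21.9% in RbL and 53.7% and 38.4% in WT at shared joint regions. With CAP-D3 alone in both genotypes the full lists gave 17.6% and 19.1% in RbL and 20.3% and 19.1% in WT. Equal numbers gave 11.2% and 12.5% in RbL and 20.3% and 14.6% in WT there. In the full lists TFIIIC was also more frequent in RbL where CAP-H2 stood alone in 1 genotype with neither subunit in the other. It was at 20.3% and 20.9% in RbL and 15.99% and 17.6% in WT at the 10820 RbL-only regions. At the 10946 WT-only regions it was at 22.9% and 23.3% in RbL and 17.6% and 19.5% in WT. Equal numbers were not tried there. Separation of the genotypes, in either direction, was thus common among the kinds of region. The TFIIIC share over all merged regions was not computed. A shift of the whole list was therefore not separated from one tied to the kind of region.

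The TFIIIC share was lower in RbL at wide and at narrow shared regions. In the widest of 4 equal classes of shared joint regions TFIIIC was called at 58.8% and 56.8% in RbL and 75.1% and 74.4% in WT, and in the narrowest class at 20.1% and 21.0% in RbL and 33.3% and 30.1% in WT. No p-value is given, and the labels do not say whether the libraries came from separate cultures. The condensin II state and TFIIIC calls share no library or input, but they come from differently fixed cells.

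H3K27me3, the mark of Polycomb repressive complex 2, was most frequent at the regions with CAP-D3 alone in both genotypes. At the 1742 regions with CAP-D3 alone in both genotypes it was called at 21.8% and 21.7% in the RbL libraries and 16.8% and 20.0% in the WT libraries. At shared joint regions it was called at 6.92% and 4.40% in RbL and 3.04% and 4.28% in WT, and where CAP-H2 was alone in both at 1.26% and 1.08% in RbL and 0.59% and 1.01% in WT. The order of the 3 kinds of region was the same in all 4 libraries. CAP-D3 alone in a single genotype did not go with such shares. The 1748 regions with CAP-D3 alone in RbL and neither subunit in WT had H3K27me3 at 8.24% and 8.47% in RbL and 6.12% and 7.15% in WT. The 4531 regions with neither subunit in RbL and CAP-D3 alone in WT had it at 7.00% and 7.81% in RbL and 4.72% and 7.04% in WT. These 2 kinds of region were narrower, at medians of 615 and 516 bp against 939 bp with CAP-D3 alone in both genotypes. Their CAP-D3 peaks also ranked lower, at median percentiles of 22.5 in RbL and 27.9 in WT, against 60.6 in RbL and 70.8 in WT. The parts of width and rank were not tested. The 10820 regions with CAP-H2 alone in RbL and neither subunit in WT had H3K27me3 at 1.49% and 1.48% in RbL and 0.92% and 1.33% in WT. The 10946 regions with the reverse had it at 1.69% and 1.76% in RbL and 0.99% and 1.46% in WT. The H3K27me3 share over all merged regions was not computed. At shared joint regions the means were 5.66% ± 1.79 in RbL and 3.66% ± 0.87 in WT (SD, n = 2 each), a difference of 2.00 percentage points that is about the size of the spread within RbL. At equal numbers of top-scoring H3K27me3 peaks (24634 per library) the difference was 0.13. H3K27me3 RbL replicate 1 and WT replicate 2 share an input with the condensin II libraries; the part of a shared input was not tested.

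**Figure D5:**
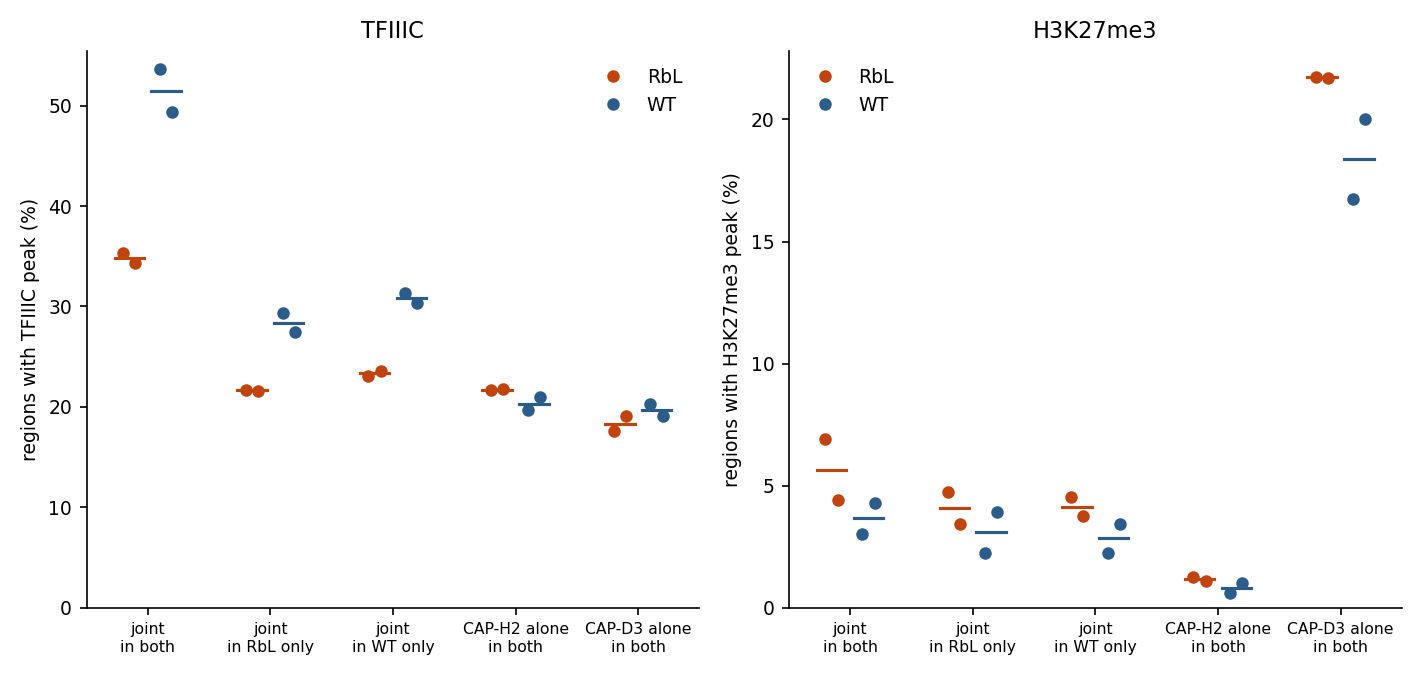
Percent of condensin II regions with a TFIIIC (left) or H3K27me3 (right) peak, by state of the region; each point is 1 library (2 per genotype) and the bar is their mean. TFIIIC at shared joint regions is 35.4% and 34.3% in RbL and 53.7% and 49.3% in WT, and of the 5 kinds of region plotted H3K27me3 is highest where CAP-D3 is alone in both genotypes, at 21.8% and 21.7% in RbL and 16.8% and 20.0% in WT.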

How the data were processed

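ChIP-seq was run on 12 immunoprecipitated libraries of RbL and WT fibroblasts, with 8 inputs that have no list here. The deposited files are mm9 peak lists, 1 per library, and the submitters' processing notes name Bowtie2 2.3.0 and MACS 1.4.0rc2 without settings or order. Each line gives a position and a score set by the authors for the peak, without a column name. Read numbers are not known here, so depth limits every comparison of calls. Groups came from the sample labels.

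Peaks on chromosomes 1 to 19 were kept; chromosomes X and Y held 307 RbL and 384 WT CAP-D3 peaks and 525 RbL and 563 WT CAP-H2 peaks. Overlap meant at least 1 shared base, and merging, shares, exact intervals and score ranks within lists were computed with Python 3.11.15, pandas 2.3.3, numpy 2.4.6 and scipy 1.17.1, after the overlap code was tested on simulated peaks. No test was run between genotypes. Named regions are the 10 shared joint regions and the 8 of each of 4 genotype-specific classes with the highest minimum percentile, ties broken by mean percentile and width. Members, lists and this rule were chosen with earlier results of these data known. Alternatives were equal list lengths, a minimum score of 100, a gap of up to 1 kb, 50% of the shorter peak, leaving out regions called in all 12 lists, and leaving out each library of TFIIIC or H3K27me3; equal list lengths for single subunits, windows and other region classes were chosen after seeing the data. Genes and sequences were not assigned, as the reference tables are of another build.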

Additional observations from a re-analysis of the deposited data

Results flagged for a closer look

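The subunits differed in how their lists compared between genotypes. The log2 ratio of peak number in RbL over WT was −0.41 for CAP-D3 and 0.015 for CAP-H2. The joint share was 10.4 percentage points higher in RbL for CAP-D3 peaks and differed by −1.97 points for CAP-H2 peaks, and that last sign turns at equal list lengths. Each value rests on 1 library per genotype, and the difference between the subunits was not tested.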

How the results depend on the processing

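Under the alternatives, 38 values stayed within the counting interval or the spread of the value reported, 15 moved beyond it and 3 reversed. The cause was not tested. The 38 include the TFIIIC and H3K27me3 values without 1 library and the means of same-numbered differences. With 2 libraries per genotype these could not leave the spread, so they are no sign of stability. The 38 also include H3K27me3 at shared joint regions at equal list lengths, which fell to 0.13 points from 2.00. It counts as unchanged only because the spread of its 2 libraries per genotype runs from 0.013 to 3.99 points. The gap of up to 1 kb, the 50% overlap rule and leaving out the 86 regions in all 12 lists moved no value beyond its interval. Equal list lengths reversed the log2 ratio of joint sites (0.14), the joint share of CAP-H2 peaks, RbL minus WT (1.98 points), and CAP-D3 at regions with CAP-H2 in both genotypes (2.01 points). They gave 5.97 points for the joint share of CAP-D3 peaks, 65.4% of RbL joint regions joint in WT, 72.1% of WT joint regions joint in RbL, CAP-H2 alone in WT at 67.1% of RbL-only and in RbL at 63.8% of WT-only joint regions, and −23.8 points for TFIIIC at shared joint regions. The 3 reversed values rest on the same CAP-D3 and CAP-H2 calls and are not separate results. A score of at least 100 left 12808 RbL and 16928 WT CAP-D3 peaks and 34209 RbL and 27340 WT CAP-H2 peaks. It gave 13.2 points for the CAP-D3 and −5.55 points for the CAP-H2 joint share, a log2 ratio of −0.013 for joint sites, 65.7% of RbL joint regions joint in WT and 47.3% of RbL-only joint regions with CAP-H2 alone in WT. Leaving out each library moved the TFIIIC difference between −18.8 and −14.5 points and the H3K27me3 difference between 0.74 points (without RbL replicate 1) and 3.26 (without RbL replicate 2). Same-numbered libraries differed by −18.3 and −15.1 points for TFIIIC and by 3.88 and 0.12 points for H3K27me3, with no test. Their means, −16.7 and 2.00 points, equal the main differences by construction, so they are no check. Condensin II has 1 library per subunit and genotype, so no pairing exists there. Unknown depth limits every statement on missing calls.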
